A study of Homo sapiens with 6 samples.

Results

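Replication-dependent histone genes encode the proteins that package newly made DNA: the core histones H2A, H2B, H3 and H4, of which nucleosomes are built, and the linker histone H1, which binds the DNA between nucleosomes. Most of their mRNAs are made in S phase, have no introns, and end in a conserved stem-loop in place of a poly(A) tail. The stem-loop is bound by the stem-loop binding protein SLBP, and the transcript is cut a few bases after it. HuR (ELAVL1) is an RNA-binding protein best known for binding U-rich and AU-rich stretches in the 3′ UTRs of polyadenylated mRNAs.

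Members were the protein-coding genes of GENCODE release 44 mapped to GRCh37 (hg19) that are named H1-, H2AC, H2BC, H3C or H4C with a number, or that still carry the older names HIST1H, HIST2H or HIST3H. The rule gave 71 of 20175 protein-coding genes: 10 of the H1 family, 17 H2A, 17 H2B, 13 H3 and 14 H4. A match to the histone 3′ stem-loop consensus was found within 300 bases after the stop codon in 66 of them, and 70 had a representative transcript without introns. No match was found in the remaining 5. They include H1-7, H1-8 and H1-10, which the name pattern admits although they are known as H1 forms made outside S phase or in germ cells, and H2BC12L. So 66 of the 71 genes had the stem-loop that the label implies and those 5 did not. A match alone does not show that a gene is made in S phase.

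The libraries came from HEK293 cells, a human embryonic kidney line, that carried a doxycycline-inducible HuR or GFP and were fed 4-thiouridine (4SU). All cells were crosslinked with long-wave UV and all RNA was partly cut with RNase T1, which cuts after G. FLAG-GFP, a protein that is not known to bind RNA, gave the GFP background from gel slices near 20, 35 and 45 kDa (G20, G35, G45, 1 library each), HuR was purified in 2 replicates, and Total was 1 library of lysate RNA that was treated with proteinase K and depleted of rRNA without immunopurification. The slices stand for the position of background on the gel and not for repeated cultures, and no source says that the HuR replicates came from separate cultures, so p-values measure only the spread between these libraries. In these bulk lysates, fewer cells that hold histone mRNA and less of it per cell cannot be told apart.

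The libraries held 6187300 to 38644636 reads at sites, of which 392845 (G45) to 6177526 (Total) lay in protein-coding exons. G20 stood apart, with 2.31% of its reads in such exons against 5.21% to 17.2% in the others. Removal of PCR duplicates was not stated, so the 95% Wilson intervals below and the floor of 3 reads cover counting error only. Only reads that mapped uniquely were kept, and histone genes are near copies of each other. A median of 80.9% of the 22-base words of a member's exons occurred once in the genome, and 6 members had no such word. Members' sites had a median length of 41, 33 and 28.5 bases in G20, G35 and G45. The median was 22 and 28 bases in HuR replicates 1 and 2 and 30 in Total. The part of these lengths in which reads mapped uniquely, and so in the members' levels, was not tested.

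The stem-loops are shown because they mark the end of the mature mRNA and are the landmark for the positions below. Each is written 5′ to 3′ as DNA with the 16-base stem-loop in capitals and 5 bases on either side.
H1-4: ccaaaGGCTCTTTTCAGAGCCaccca
H2AC11: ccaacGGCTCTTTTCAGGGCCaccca
H2BC5: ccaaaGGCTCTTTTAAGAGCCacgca
H3C2: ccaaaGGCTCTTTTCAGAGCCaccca
H4C8: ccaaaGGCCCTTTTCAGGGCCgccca
The form of H1-4 and H3C2 was the most frequent, in 39 members of the H1, H2A, H2B and H3 families. The form of H4C8 was found in 9 members, all of the H4 family. The stem-loop began a median of 35 bases after the stop codon, with a range of 22 to 67 bases over the 66 genes.

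A few short sites carry the site-level results and are shown from the deposited tables, with runs of 4 or more T in capitals. The HuR site of H4C8 at chr6:26285374-26285400 (minus strand) lay between the stop codon and the stem-loop and ended on the first base of the stem-loop. The site of H1-10 at chr3:129034056-129034084 (minus strand) lay in its 3′ UTR. The G35 site of H2BC26 at chr1:228646451-228646466 (plus strand) lay beyond the stem-loop, in an exon that the annotation extends past it. Each sequence occurred once in GRCh37.
H4C8: cactcttaTTTTcaTTTTcaaccaaag
H1-10: cggccggcgtgggcTTTTcggtgTTTTTg
H2BC26: ggtgatgtagctcagt

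Histone genes took a smaller part of the exon reads in HuR than in any background slice or in Total. They held 0.685% of exon reads in G20, with a 95% interval of 0.668% to 0.702%. The share was 0.166% in G35 (0.154% to 0.179%), and G45 had 0.22% (0.206% to 0.235%). In HuR the share was 0.042% in replicate 1 (0.0379% to 0.0466%) and 0.107% in replicate 2 (0.104% to 0.11%), which is 0.0745% ± 0.046 (SD, n = 2). Total held 0.299% (0.295% to 0.303%). Both HuR replicates lay below all 3 slices and below Total, and they differed from each other by more than their counting intervals. The order rests on exon reads as the denominator. In reads per 1000000 reads of the whole library (RPM), members had 158 in G20, 112 in G35, 115 in G45, 37.3 and 137 in the HuR replicates and 514 in Total, so that replicate 2 of HuR lay among the slices.

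T-to-C conversions, which mark 4SU crosslinked to protein, were frequent at histone sites in the immunopurified libraries other than G20. There were 81.4 conversion events per 100 reads at members' sites in G35 and 69.9 in G45, against 49.0 and 46.8 over all protein-coding exons of the same libraries. HuR had 86.8 events per 100 reads in replicate 1 and 93.1 in replicate 2, where all exons had 50 and 99.0. G20 and Total had 17.1 and 13.8, below the 21.3 and 25.3 of all exons. The members thus had more events per read than all exons in G35, G45 and HuR replicate 1, and fewer in G20, HuR replicate 2 and Total. A read can hold more than 1 event, so values over 100 can occur.

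**Figure D1:**
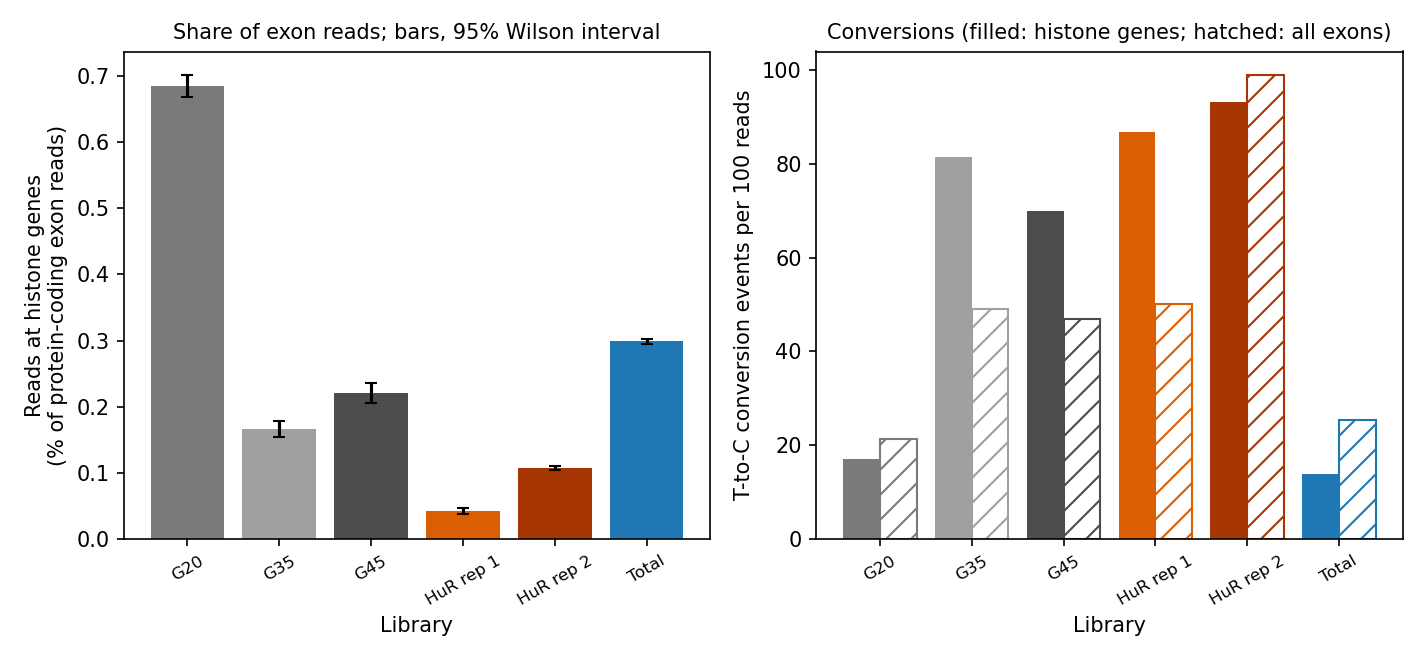
Left, reads at the 71 histone genes as a percentage of protein-coding exon reads in each library, with 95% Wilson intervals; right, T-to-C conversion events per 100 reads at histone genes (filled) and over all protein-coding exons (hatched). The HuR bars of 0.042% and 0.107% are lower than those of the slices and of Total, and conversions at histone genes run from 13.8 in Total to 93.1 in HuR replicate 2.

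Of the 71 members, 63 had a read in at least 1 library and 35 had a read in all 6. Reads were seen for 51 members in G20, 41 in G35, 46 in G45, 43 and 48 in the HuR replicates, and 56 in Total. The 8 members with no read were HIST2H2AA3, H2AC19, H3C14, H3C15, H4C14 and H4C15, which are the 6 genes without a unique 22-base word, and H1-5 and H1-8. A filter on low counts passed 43 members: 5 of the H1 family, 13 H2A, 11 H2B, 7 H3 and 7 H4. Of the other 28, 20 had reads, with at most 10 in 1 library. Because a gene can pass the filter through the libraries in which it is high, counts over the 43 describe those genes and not all members.

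Levels are given as normalised RPM, which are reads per 1000000 exon reads of the library after TMM scaling, and per kb of exon where genes are compared. The linker histones H1-4 and H1-2 had the most reads per kb of all members when the 6 libraries were summed on an equal scale. H1-4 had 1090 normalised RPM per kb in G20, 262 in G35, 413 in G45 and 687 in Total, but 5.14 and 13.5 in the HuR replicates. H1-2 had 1200, 233 and 375 in the slices and 562 in Total, against 20.3 and 44.3 in HuR. For both genes every HuR value lay below every other library.

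Among the core histones, H3C2 was the H3 gene with the most reads per kb, with 545, 208 and 531 normalised RPM per kb in G20, G35 and G45, 372 in Total, and 18.5 and 34.0 in the HuR replicates. H4C3 had 130, 292 and 351 in the slices, 291 in Total, and 20.0 and 12.8 in HuR. H2AC12 had 222, 133 and 152 in the slices, 235 in Total, and 8.85 and 17.5 in HuR. H2BC5 ranged more widely between the slices, at 389 in G20, 31.7 in G35 and 110 in G45, with 133 in Total and 11 and 11.6 in HuR. In these 4 genes, as in H1-2 and H1-4, the HuR replicates lay below all slices and below Total.

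The remaining leading genes of each family were H2AC7 and H2AC11, H2BC11 and H2BC12, H3C4 and H3C10, H4C1 and HIST1H4B. HIST1H4B (H4C2) had 145, 179 and 203 in the slices against 60.4 and 57.1 in HuR on the same per-kb scale. H3C10 had 39.6, 38.9 and 22.7 against 9.71 and 15.5. H4C1 had 354, 83.1 and 126 in the slices but 31.1 in Total. H2AC7 and H3C4 overlap another annotated coding gene on the same strand, so their reads may belong to it, and 21.5% of the 22-base words of H2BC12 were unique, so its levels are uncertain. The order within families divides by all annotated exon, so long annotated exons lower a gene's rank. H4C8 ranked 6 in its family with 125, 155 and 268 normalised RPM in the slices over 2163 bases. H4C3 ranked 1 with 52.7, 118 and 142 over 405 bases.

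**Figure D2:**
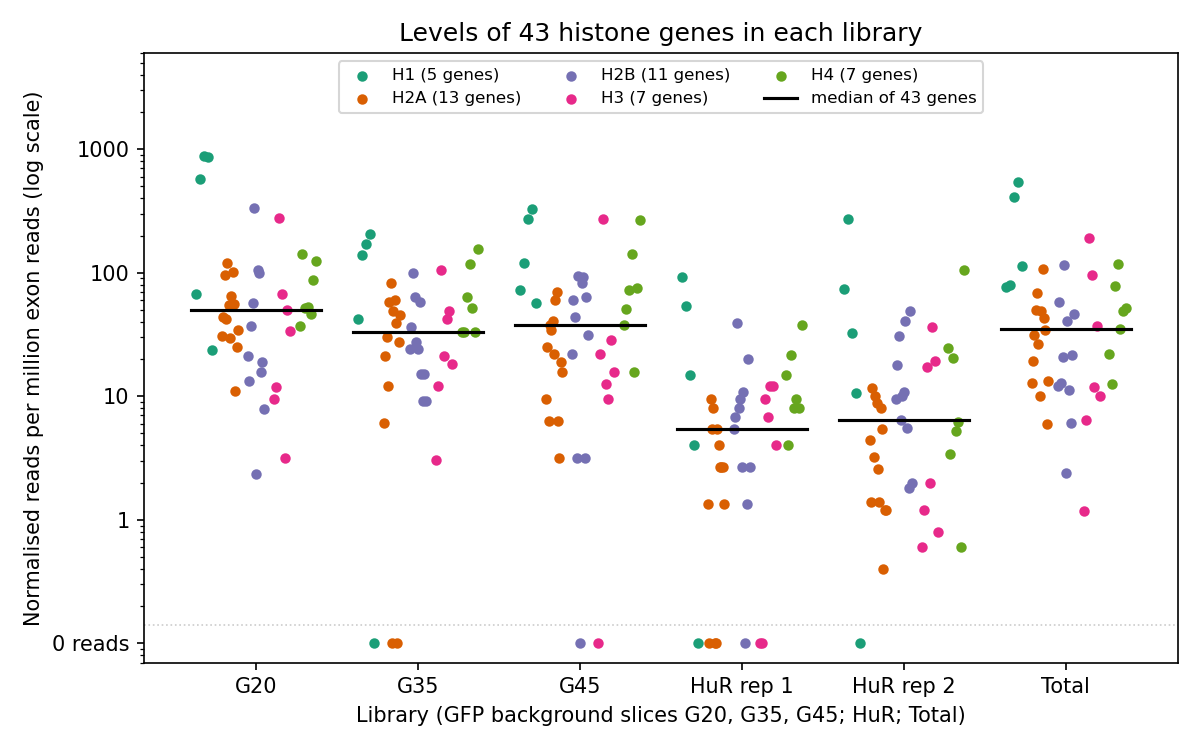
Normalised RPM (reads per 1000000 exon reads after TMM scaling, log scale, zeros on the bottom line) of the 43 tested histone genes in each library, coloured by family, with the median as a black line. The median lines of both HuR replicates sit below those of G20, G35, G45 and Total, while a few H1, H2B, H3 and H4 genes stay near the slice levels.

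The comparison of HuR with the GFP background asks which RNAs are bound beyond what a protein that is not known to bind RNA brings down. For histone genes most values were lower in HuR: the median log2 fold change of HuR over background was -2.97 over the 43 tested members, against -0.04 over all 12784 genes tested, and it was negative in 40 of the 43. In 30 members both HuR replicates lay below all 3 slices, 69.8% of those tested, where this held for 17.5% of all genes.

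No member was called, and no gene at all was called (background 0% of 12784 genes), by edgeR's quasi-likelihood test at a Benjamini-Hochberg adjusted p of 0.05. The lowest adjusted p among members was 0.0593, and 24 members had an unadjusted p under 0.05 with a lower HuR level, where 10.8% of all genes did so. None had such a p with a higher HuR level, where 11.1% of all genes did. DESeq2's Wald test on the same reads called 19 members lower and 0 higher in HuR, where it called 6.55% of all genes lower and 4.65% higher. It gave 7 of the 43 members no adjusted p. A further edgeR fit took each slice as its own group, which left HuR as the only group with replicates. In every contrast the calls of that fit rest on the spread between the HuR replicates, with none measured for background or Total. With each slice as its own group, so that differences between slices did not enter the spread, edgeR called 18 members lower and 0 higher, against 5.24% and 9.43% of all genes.

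The linker histones H1-2, H1-3 and H1-4 had negative log2 fold changes of HuR over background. The log2 fold change of H1-4 was -5.89 ± 1.13 (SE, 2 HuR against 3 background libraries, edgeR adjusted p 0.0593) and that of H1-2 was -4.20 ± 1.04 (edgeR adjusted p 0.0647). H1-3, named after its values were seen, had 30, 0 and 18 reads in the slices and 761 in Total but none in either HuR replicate. Against a floor of 3 reads over both replicates it was at least 47.9-fold lower in HuR than in the slices pooled and at least 217-fold lower than in Total.

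The H2A family, which has the most tested members, held no exception to this direction. All 13 tested H2A members had negative values, from -4.89 to -2.11, with a median of -3.40, and 9 had an unadjusted p under 0.05. The H4 family ranged from -4.39 to -0.86 with a median of -2.33, all 7 negative. In the H3 family 6 of 7 were negative, with a median of -3.32, and in the H2B family 10 of 11, with a median of -1.64. H3C12, at -3.5 and named after its values were seen, had 0 reads in its own transcript in each slice. Its 43, 6 and 5 reads in G20, G35 and G45 lay in an exon inside H2AC17. Counts over the tested members thus hold these sites for both genes. H4C3 gave -4.01 ± 0.86 and H3C2 gave -3.98 ± 0.86, each with an edgeR adjusted p of 0.0593.

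**Figure D3:**
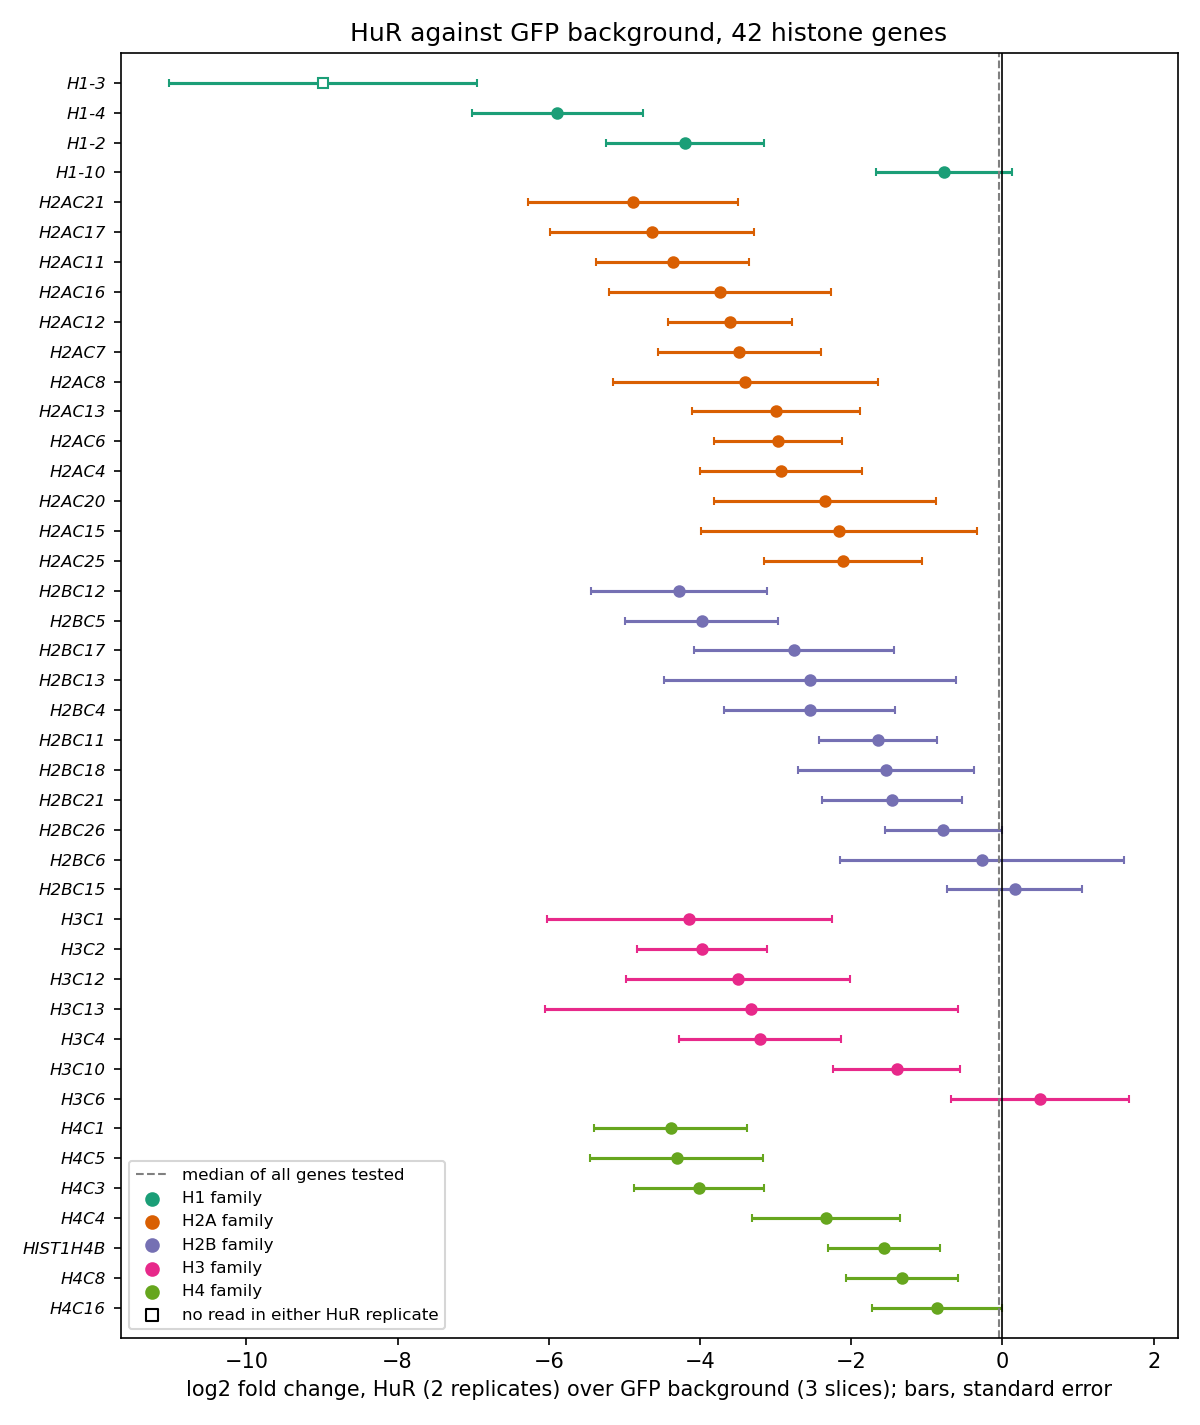
Log2 fold change of HuR over GFP background for 42 of the 43 tested histone genes, by family, with standard errors from the edgeR fit; the dashed line is the median of all 12784 genes, and the open square marks the gene without HuR reads, whose fitted value is not a measured fold. Values are negative for 40 genes, and H2BC15 and H3C6 are above 0.

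The members with a log2 fold change of HuR over background above -1 included H1-10, which lacks the stem-loop, and H2BC6, H2BC15, H2BC26, H3C6 and H4C16. The last 5 had exon reads outside the stretch from the start of the representative transcript to the stem-loop. Other members had such reads too. H2BC11, H2BC21 and H3C10 had 160, 88 and 82 in HuR replicate 2, with log2 fold changes of -1.64, -1.46 and -1.4. H2BC21 was named after its values were seen. H1-10, also known as H1x, had 571, 140 and 120 normalised RPM in the slices, 53.9 and 270 in HuR and 80.1 in Total. Its HuR replicates spanned the values of G35 and G45. H1-7 had 2 reads in HuR replicate 1 and none elsewhere. H1-8 had no read, and H2BC12L had 1, in G45.

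Together the 5 genes without a stem-loop held 31.3% (95% interval 26.7% to 36.3%) and 39.0% (37.6% to 40.5%) of the members' reads in the HuR replicates. The shares were 13.3%, 8.63% and 7.18% in G20, G35 and G45 and 5.68% in Total. H1-10 gave 40 of the 111 reads in HuR replicate 1 and 1353 of the 1720 in replicate 2, where 1 site held 1118. As a level these genes had 131 and 417 reads per 1000000 exon reads in HuR, against 911, 144 and 158 in the slices and 170 in Total, so that replicate 1 lay below every slice and replicate 2 below G20. In the 66 genes with a stem-loop, some exon sites lay outside the stretch from the start of the representative transcript to the stem-loop. They lay past the stem-loop or upstream of that transcript, as did those of H3C12 and most HuR sites of H2BC6. Such sites held 30.7% (25.3% to 36.8%) and 40.7% (38.8% to 42.5%) of the reads in HuR. The shares were 1.68%, 10.7% and 3.62% in the slices and 2.77% in Total. The level of these sites was 88.8 and 265 reads per 1000000 exon reads in HuR, against 99.9, 163 and 73.8 in the slices and 78.2 in Total. Replicate 1 thus lay among the slices and replicate 2 above them. In HuR replicate 2 such reads came mainly from H2BC15 (182 reads), H3C6 (175), H2BC11 (160), H2BC26 (145) and H4C16 (95), some of which were named after their values were seen. In G20 these 5 genes had 0 to 9 such reads each. The counts per gene are raw reads and not on an equal scale. Exon reads numbered 4122282 in HuR replicate 2, against 891102, 417883 and 392845 in G20, G35 and G45. H3C12 gave 43 of the 89 in G20 and 62 of the 483 in Total, from an exon upstream of its transcript and inside H2AC17. H2BC26 held 31 of the 68 such reads in G35 and 14 of 29 in G45, as well as 28 of 75 in HuR replicate 1.

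Up to the stem-loop, members had 5840, 1360 and 1970 reads per 1000000 exon reads, without TMM scaling, in the slices and 2740 in Total. HuR had 200 and 386, or 293 ± 132 (SD, n = 2). On this count both HuR replicates again lay below every other library. When only reads up to the stem-loop were counted for these genes, an alternative chosen after the data were seen, the median log2 fold change of HuR over background was -3.40 over 41 tested members, and edgeR called 0 of them.

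Reads lay in different places along the genes in HuR and in the other libraries. In the 66 genes with a stem-loop, the coding sequence held 93.0%, 84.9% and 83.4% of the reads from the 5′ UTR to 200 bases past the stem-loop in G20, G35 and G45, and 83.5% in Total. In HuR it held 56.3% (49.4% to 63.1%) and 48.1% (45.9% to 50.3%). The 5′ UTR held 14.8% ± 1.27 (SD, n = 2) of these reads in HuR, 2.65% to 8.29% in the slices and 2.54% in Total. The 200 bases after the stem-loop held 15.9% ± 2.40 in HuR, 0.569% to 3.71% in the slices and 1.04% in Total. The coding sequence made up 57.5% of these bases and the 200 bases after the stem-loop 28.7%. T made up 15.9% of the coding bases, 36.9% of the 5′ UTR and 29.0% of the bases after the stem-loop. The part of base composition in these shares was not tested.

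**Figure D4:**
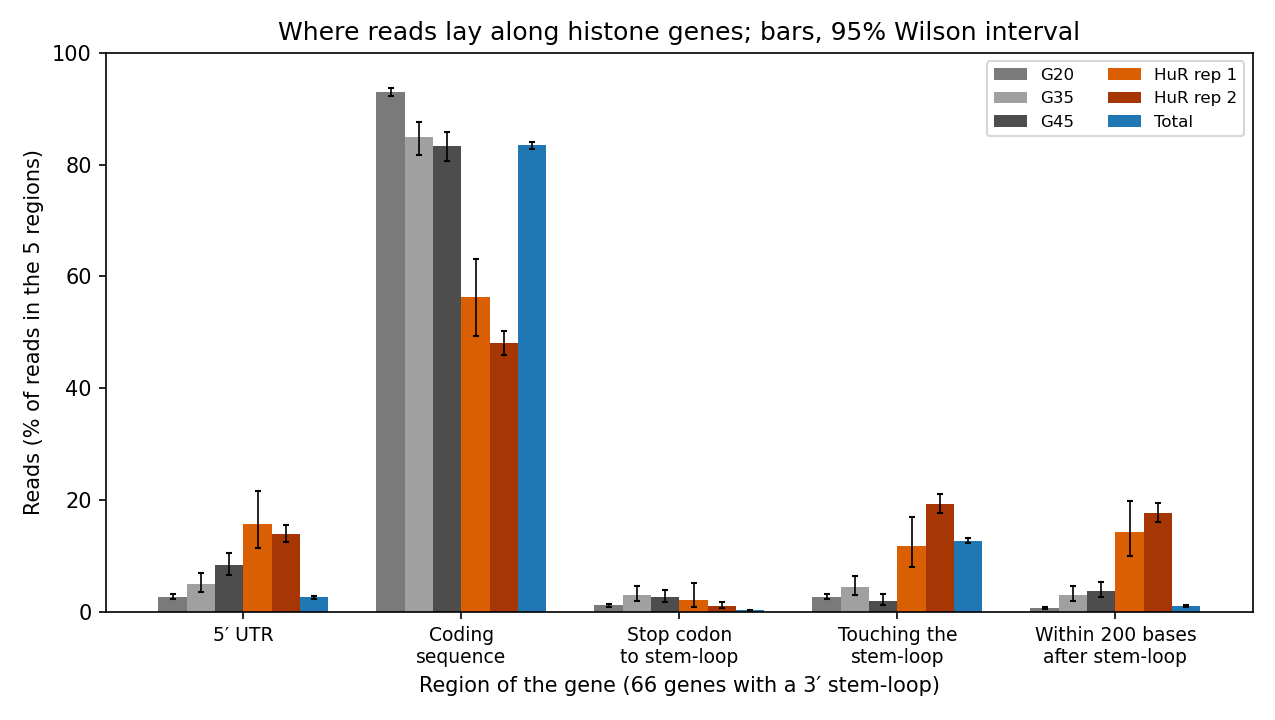
Percentage of reads in 5 regions of the 66 histone genes with a stem-loop, for each library, with 95% Wilson intervals. The coding sequence holds 83.4% to 93.0% of reads in the slices and 83.5% in Total but 56.3% and 48.1% in HuR, and the 5′ UTR and the bases after the stem-loop hold more in HuR.

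Sites that touched the stem-loop held 2.65%, 4.41% and 1.98% of these reads in the slices, 11.7% (7.91% to 16.9%) and 19.3% (17.6% to 21.1%) in HuR and 12.7% (12.2% to 13.2%) in Total. The members behind these reads differed. In Total they were spread over 36 members, with 806 of 2183 reads from H1-4 and 243 from H2AC13. In HuR, H4C8 alone gave 15 of 23 reads in replicate 1 and 309 of 376 in replicate 2. Without H4C8, the HuR shares were 4.73% and 4.57%. Conversions at these sites numbered 100 and 110 per 100 reads in HuR, 22.9, 42.3 and 0.0 in G20, G35 and G45, and 15 in Total. H4C8 held 15 of the 23 events in HuR replicate 1 and 346 of the 412 in replicate 2.

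**Figure D5:**
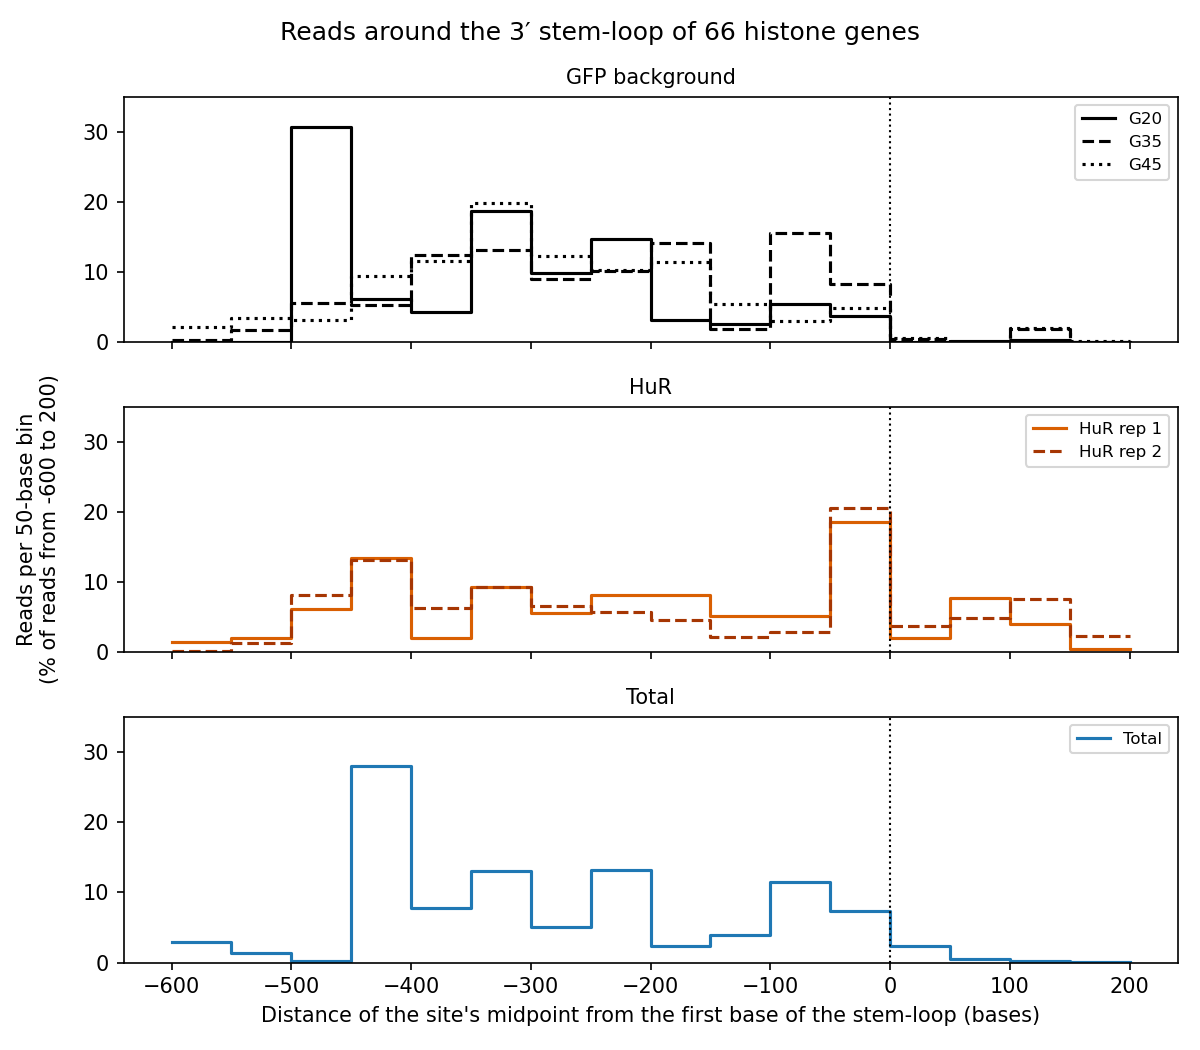
Reads by the distance of each site's midpoint from the first base of the stem-loop, in 50-base bins, as a percentage of the reads from 600 bases before to 200 bases after it. In HuR the bin just before the stem-loop holds 18.6% and 20.6% of reads, against 3.78% to 8.29% in the slices and 7.29% in Total. In that bin 1 site of H4C8 gave 15 of 36 reads in HuR replicate 1 and 309 of 396 in replicate 2.

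The H4C8 site printed above had the same ends in G35, G45 and HuR replicate 1. It held 11 reads in G35 and 16 in G45, with no conversion in either. In HuR replicate 1 its 15 reads held 15 conversion events at 7 positions. In HuR replicate 2 a wider site of 83 bases covered it with 309 reads and 346 events at 16 positions, and in Total the site over it had 37 reads and 14 events. Over those 83 bases G35 had 21 reads and 10 events and G45 had 16 reads without an event, so that conversions near the printed bases were seen in G35 too. How many of the events in replicate 2 lay within the printed bases is not given by the site totals. In G20 a site with 27 reads overlapped only its first base. The level of H4C8 as a whole was 125, 155 and 268 normalised RPM in the slices, 37.8 and 105 in HuR and 51.4 in Total, with a log2 fold change of HuR over background of -1.33 ± 0.74 (edgeR adjusted p 0.301).

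In HuR replicate 2 the site with the most reads of any member lay in the 3′ UTR of H1-10, just after its stop codon. It held 1118 reads and 1073 events, 25.4% of all member reads of that library. Sites over the printed 29 bases had 14 reads and 14 events in replicate 1, 28 reads and 7 events in G20, 14 and 11 in G35, 4 and 4 in G45, and 29 reads without a conversion in Total. Over the 66 bases of the replicate 2 site, G20 had 240 reads and 12 events. G35 had 14 and 11, G45 had 7 and 4, and HuR replicate 1 had 15 and 15. Exon reads numbered 891102 in G20 and 4122282 in HuR replicate 2, so these raw counts are not on an equal scale. The H1-10 site was thus converted in G35 and G45 as well as in HuR.

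In the slices and in Total the 3 leading sites of each library lay in coding sequence, apart from 1 in G35. In G20 they were in H1-4 and H1-2, with 1077 reads for a 579-base site of H1-4 that was 17.6% of all member reads there. In Total they were in H1-4, H1-2 and H3C2, with 1816, 1644 and 849 reads. In G45 they were in H1-4 and H1-2, with 28 to 36 reads each, and in G35 sites of H4C3 and H3C2 followed the H2BC26 site with 22 and 18 reads. The H2BC26 site held 25 reads in G35 without a conversion, and 0 to 11 reads in each other library. Its midpoint lay 219 bases past the start of the stem-loop.

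Most HuR reads at histone genes lay where background had reads too. Of the HuR reads at members' sites, 76.1% (95% interval 71.4% to 80.2%) in replicate 1 and 75.4% (74.1% to 76.7%) in replicate 2 were at sites that shared at least 1 bp with a site of any slice. Over all protein-coding exons the shares were 66.3% and 47.2%. In replicate 1 the order of members and exons rested on G20: without it the shares were 55.5% (50.3% to 60.6%) for members and 58.5% for exons, while in replicate 2 they were 65.0% and 34.9%. Counted by sites, 62.3% and 56.8% of the members' HuR sites overlapped background, against 23.5% and 23.4% of all exon sites. Reads on the opposite strand of the members' transcripts were 12.7% of the reads there in HuR replicate 1 (41 of 324 reads) and 0.16% to 3.65% in the other libraries. The part of such reads in the levels of replicate 1 was not tested.

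Averaged over sites, histone sites had fewer T than exon sites in every library. T made up 17.1% to 20.3% of the bases of members' sites in the slices, 28.7% and 27.4% in HuR and 20.5% in Total, against 19.4% to 26.5%, 33.8% and 34.6%, and 25.5% for all exon sites. Weighted by reads, HuR replicate 1 had 30.1% at members' sites against 28.2% at exon sites, and in the other 5 libraries members' sites still had fewer. A run of TTTTT was present in 8% and 13.6% of members' HuR sites and in 12.3% and 18.2% of all HuR exon sites. In G20, G35 and G45 it was present in 3.57%, 6.45% and 2.67% of members' sites against 2.99%, 9.59% and 11.4% of exon sites, and in Total in 5.71% against 5.55%.

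The comparison of the GFP background with Total asks whether background follows the RNA that was present. These contrasts share libraries, so each is given by its own values. The median log2 fold change of background over Total was 0.56 over the 43 members and -0.01 over all genes. edgeR called 0 members (background 0% of genes). DESeq2 called 0, where it called 2.21% of all genes higher and 0.102% lower, and edgeR with each slice as its own group called 0, against 0.508% higher and 0.399% lower. At an unadjusted p under 0.05, 1 member was higher in edgeR, H4C1, at 2.62 ± 1.17 (edgeR adjusted p 0.807), where 3.51% of all genes were higher, and none was lower, where 2.39% were. All slices lay above Total for 14 members, 32.6% of those tested (16.6% of all genes), and below it for 8, 18.6% (28.5%). The direction depended on the scale: with all reads of the library as the denominator, the members' median was -1.74, against -2.18 over all genes.

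In HuR against Total, the median was -2.21 over the 43 members, negative in 36, and 0.08 over all genes. edgeR called 0 members (background 0% of genes), with 18 at an unadjusted p under 0.05, all lower in HuR, where 6.12% of all genes were lower and 3.79% higher. DESeq2 called 7 members lower and 0 higher, against 1.22% and 1.53% of all genes, and it gave 16 of the 43 no adjusted p. With each slice as its own group edgeR also called 7 lower and 0 higher, against 1.3% and 0.454%. Both HuR replicates lay below Total for 35 members, 81.4% (39.5% of all genes), and above it for 3, which were H2BC26, H2BC6 and H3C6 (35.5% of all genes). H1-4 gave -6.11 ± 1.22 (edgeR adjusted p 0.16), H4C3 gave -4.20 ± 0.95 (0.161) and H1-10 gave 1.03 ± 1.23 (0.865).

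A list of 9 variant histone genes with polyadenylated mRNAs was set beside the members. All 9 were tested and edgeR called none in any contrast. In HuR against background 6 were positive and 3 negative, with a median of 0.54 and 2 at an unadjusted p under 0.05. H3-3A, which encodes the replacement histone H3.3, had 10.2, 30.4 and 9.46 normalised RPM in the slices, 48.5 and 98.7 in HuR and 8.49 in Total. H2AX, whose gene gives both a stem-loop and a polyadenylated mRNA, had 337, 161 and 123 in the slices, 41.8 and 29.4 in HuR and 179 in Total. So both HuR values of H3-3A lay above all slices, and both of H2AX lay below. These genes are no members and were named after their values were seen.

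Of 12 genes for histone mRNA processing, such as SLBP, its partners at the stem-loop and the cleavage factors, 11 were tested and none was called by edgeR in any contrast. In HuR against background 5 were positive and 6 negative, with a median of -0.40 and 2 at an unadjusted p under 0.05. The mRNA of SLBP itself had 52.7, 24.3 and 25.2 normalised RPM in the slices, 18.9 and 26.8 in HuR and 26.4 in Total, so its HuR replicates overlapped the slices.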

How the data were processed

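PAR-CLIP sites of 6 HEK293 libraries were analysed. The authors sequenced single reads of 50 bp, removed adapters, dropped reads under 10 bp and mapped the rest to hg19 with bowtie, allowing 2 mismatches. Uniquely mapping reads with at most 2 mismatches of the T-to-C kind were kept by PARalyzer. Per site, the deposited tables give raw counts: reads, positions with a conversion, and conversions. The authors applied no normalization to them. The groups tables, which hold every site, were used, and the clusters tables served as an alternative.

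Positions matched GRCh37 for all 2000 sites sampled per table. Reads were summed per protein-coding gene over sites whose midpoint lay in an exon on the gene's strand, so a site in overlapping genes counts for each. Genes passing edgeR's filterByExpr were fitted in 1 quasi-likelihood model of 3 groups with TMM scaling, with Total, a single library, assumed to vary like the others, and p-values were adjusted over all genes tested. The common dispersion was 0.543 with 3 residual degrees of freedom. On simulated data for HuR against background (12784 genes), 93.5% of 16-fold changes were recovered at a dispersion of 0.2 and 4.21% at 0.8. For 4-fold changes the shares were 22.3% and 0%. The fitted dispersion lay between these settings and was not simulated. Fold changes of genes at 0 were bounded with a floor of 3 reads.

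Genes were named by rule: the 3 of each family with the most reads per kb, the 4 called members with the largest fold in each direction per contrast, H1 forms without a stem-loop, members without a read, and the 3 sites with the most reads per library. The members, lists and rules were chosen with earlier results of these data known. H2BC7, H2BC8 and H4C6 were not analysed here, and 1 tested member, included in the counts, is not reported here by name. R 4.3.3, edgeR 4.0.16, DESeq2 1.42.0, Python 3.11.15, pandas 2.3.3 and statsmodels 0.14.6 were used.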

Additional observations from a re-analysis of the deposited data

How the results depend on the processing

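No paired analysis was possible because the labels number the HuR replicates only, and the slices and Total share no replicate number with them. Members called, which were 0 by the edgeR fit, were all lower in the first-named group: for HuR against background 2 with scaling by all reads of the library (of all genes, 42 of 12784 were lower), 15 without a filter on low counts (479 of 18651), 19 by DESeq2's Wald test and 18 with each slice as its own group, for HuR against Total 4 (63 of 12784), 10 (176 of 18651), 7 and 7 in the same order, and for background against Total 4 with scaling by all reads (2021 of 12784). Leaving out 1 library gave 0 to 5 for HuR against background (5 without HuR replicate 1, where 112 of 12496 genes were lower, and 3 without replicate 2, where 40 of 12463 were) and 0 to 2 for HuR against Total (1 and 2, with 19 genes lower in each). With a replicate left out, the lone HuR library is assumed to vary like the other groups. With each slice as its own group, the single slices and Total are assumed to vary like the HuR replicates. The cause of these differences was not tested. Scaling by all reads moved the median log2 fold change of all genes to 1.42 for HuR against background, where that of members was -1.34. All other alternatives called 0 members. The share of exon reads (G20, G35, G45, Total) was 1.36%, 0.131%, 0.184% and 0.445% in the clusters tables, 0.559%, 0.15%, 0.194% and 0.240% without the member with the most reads, and 1.01%, 0.142%, 0.205% and 0.329% at sites of 5 or more reads, with 0.668% in G20 when 1 bp of overlap sufficed. In HuR replicate 1 it fell from 0.042% to 0.0217% at sites of 5 or more reads, and the other settings gave 0.0336% to 0.0417% there and 0.0740% to 0.108% in replicate 2 over all settings. Conversion events per 100 reads were 98.6 (G35), 75.5 (G45), 111 (HuR replicate 1) and 15 (Total) in the clusters tables, and 86.6, 66.1 and 108 for the first 3 at sites of 5 or more reads. The share of reads at the stem-loop (G20, G35, G45, HuR replicates 1 and 2, Total) was 0.284%, 0.339%, 0.0%, 3.05%, 3.44% and 5.18% when the midpoint had to lie within 10 bases of it, and 0.0%, 0.0%, 0.0%, 50%, 25.9% and 6.85% in the clusters tables. Without the member with the most reads it was 3.37% in G20, 4.73% and 4.57% in HuR and 10.2% in Total, and at sites of 5 or more reads 42.9% in HuR replicate 1. The share of HuR reads that overlapped background (replicates 1 and 2) was 73.2% and 68.1% with at least 50% of the site covered, 62.5% and 65.2% against background sites of 5 or more reads, 75.2% in replicate 1 on the same strand, and 55.5% to 75.5% and 65.0% to 74.7% when 1 slice was left out, lowest without G20 in both. A floor of 3 reads was 9.11 and 9.46 normalised RPM in G35 and G45, 4.05 in HuR replicate 1 and 0.447 to 2.36 in the others.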
